A study of Mus musculus with 48 samples.

Results

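The hypoxia response genes described here are *Hif1a*, *Epas1*, *Hif3a*, *Egln1*, *Egln3*, *Vegfa*, and *Ankrd37*, which were picked by gene symbol as 7 of the 56748 genes in the deposited expression table. They were followed in 48 poly-A RNA-seq libraries of tibialis anterior (TA), a fast-twitch muscle of the lower hindlimb, to ask how the oxygen-sensing pathway of muscle varied with pancreatic cancer, with FoxP1, and with circadian time (CT). All mice were male and 39 to 55 weeks old. Control mice received PBS into the surgically exposed pancreas, and KPC mice received murine KPC pancreatic cancer cells at the same site, which form orthotopic tumors. The FoxP1SkmKO mice were homozygous for floxed *Foxp1* and carried a Cre that the ACTA1 promoter drives in muscle fibers, so other cells of the muscle keep the gene. The WT mice are C57BL/6J by the sample labels and floxed mice without Cre by the series record. All mice had been moved from a light/dark cycle to constant darkness, and muscles were taken at 6 evenly spaced times from CT18 to CT38. With 2 mice for each genotype, condition, and time there were 24 groups, and each combination of genotype and condition held 12 mice over the 6 times.

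Cells adjust transcription to oxygen through hypoxia-inducible factors (HIFs), which pair an oxygen-labile alpha subunit with the stable partner ARNT. In the presence of oxygen, prolyl hydroxylases mark the alpha subunit for ubiquitination by the VHL complex, and when oxygen falls the subunit accumulates and induces genes of glycolysis, angiogenesis, and mitophagy. This control acts on the protein, so transcript levels of the subunits do not measure HIF activity. *Hif1a*, *Epas1*, and *Hif3a* encode alpha subunits, of which EPAS1 (HIF-2 alpha) is prominent in endothelium and some HIF-3 alpha variants dampen the others. *Egln1* (PHD2) and *Egln3* (PHD3) encode hydroxylases, and *Egln3* is itself a HIF target. *Vegfa*, the ligand that drives capillary growth, and *Ankrd37*, which encodes an ankyrin repeat protein, are HIF targets.

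HIF dimers bind the cores ACGTG and GCGTG, and promoters of the genes were searched for them. RefSeq promoters (build GRCm38.p6, from 250 bases before to 50 bases after a transcription start) were found for 6 of the 7 genes, with 2 starts for *Vegfa*, and *Epas1* had no entry. Each promoter matched GRCm39, the build of the deposited data, at 1 place. The bases upstream of a start are shown for *Hif1a*, *Egln3*, and *Ankrd37*, the 3 genes with the lowest p-values for a tumor effect in WT mice, printed 5′ to 3′ on the gene's strand, with ACGTG and GCGTG of either strand in capitals (CACGT and CACGC where the core lies on the other strand). The *Hif1a* sequence spans chr12:73954391-73954599 on the plus strand, within the gene's annotated span, and runs from base -250 to base -42. Of the 250 bases before this start, 71 are exonic. The *Egln3* sequence spans chr12:54250661-54250910 on the minus strand, and 13 of its 250 bases lie in an annotated exon. The *Ankrd37* sequence spans chr8:46452888-46453137 on the minus strand, within the annotated span, and 24 of its 250 bases are exonic.
Hif1a: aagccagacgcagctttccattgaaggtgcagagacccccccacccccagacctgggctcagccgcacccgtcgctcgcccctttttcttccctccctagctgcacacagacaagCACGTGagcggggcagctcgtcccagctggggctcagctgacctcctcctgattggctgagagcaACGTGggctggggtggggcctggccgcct
Egln3: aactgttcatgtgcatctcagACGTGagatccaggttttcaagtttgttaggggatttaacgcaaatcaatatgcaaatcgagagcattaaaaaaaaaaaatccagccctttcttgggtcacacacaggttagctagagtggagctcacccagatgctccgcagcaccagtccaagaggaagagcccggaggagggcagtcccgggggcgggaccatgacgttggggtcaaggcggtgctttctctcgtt
Ankrd37: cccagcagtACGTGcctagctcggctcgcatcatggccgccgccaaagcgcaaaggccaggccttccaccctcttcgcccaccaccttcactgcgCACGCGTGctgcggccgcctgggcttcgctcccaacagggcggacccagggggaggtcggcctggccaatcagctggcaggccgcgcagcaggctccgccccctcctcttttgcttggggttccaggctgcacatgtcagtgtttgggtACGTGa

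In *Ankrd37*, ACGTG began at bases -241 and -6 from the start and GCGTG at -155 and -152. In *Hif1a*, ACGTG began at -135, -134, and -70, where the overlapping pair at -135 and -134 forms 1 palindromic CACGTG, the E-box letters to which clock factors bind. *Egln3* held 1 ACGTG, at -229. *Egln1* held 1 ACGTG and 1 GCGTG, the *Vegfa* start nearer the end of the gene 1 of each, *Hif3a* 2 GCGTG, and the other *Vegfa* start neither core. Of the 250 bases before the start, 250 lie in the gene's annotated exons for *Egln1*. For the *Vegfa* start nearer the end of the gene, 218 do. Among all 32851 RefSeq promoters of this length, 19.6% held ACGTG, 32.4% held GCGTG, and 7.15% held CACGTG on either strand, so short cores of this kind are common. The forkhead core GTAAACA, a motif of FoxP1-type factors, was in 3.65% of promoters and in none of those 7. These matches describe letters and not binding.

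By the deposited annotation of mm39, *Hif1a* (ENSMUSG00000021109) lies on chromosome 12 from 73948149 to 73994304, *Epas1* (ENSMUSG00000024140) on chromosome 17 from 87061128 to 87140838, *Hif3a* (ENSMUSG00000004328) on chromosome 7 from 16765432 to 16796352, and *Egln1* (ENSMUSG00000031987) on chromosome 8 from 125635326 to 125676063. *Egln3* (ENSMUSG00000035105) lies on chromosome 12 from 54225767 to 54250646, *Vegfa* (ENSMUSG00000023951) on chromosome 17 from 46327919 to 46343295, and *Ankrd37* (ENSMUSG00000050914) on chromosome 8 from 46449939 to 46458744. Libraries held 14480867 to 20787784 counts on genes. Summed markers of fast fibers lay between 5.25e4 and 7.14e4 FPKM (fragments scaled to gene length and library size) in every library, and the 3 pancreas markers summed to at most 0.0367. *Foxp1*, the targeted gene, averaged 0.630 FPKM in WT control, 0.629 in WT KPC, 0.578 in FoxP1SkmKO control, and 0.544 in FoxP1SkmKO KPC mice, the ranges of all 4 sets overlapped, and its genotype effect was not called in control (adjusted p = 0.459) or KPC mice (adjusted p = 0.246, edgeR), so genotypes are named as labelled. Liver transcripts summed to 151 FPKM in FoxP1SkmKO KPC CT18 replicate 2 and 46.6 in FoxP1SkmKO control CT22 replicate 1, against at most 6.57 elsewhere. In bulk muscle, fewer cells of a type and less RNA per cell cannot be told apart.

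The 7 genes differed in level by nearly 3 orders of magnitude, in the same order in every mouse. On the FPKM scale, which corrects for gene length, the mean over 48 libraries was 105 for *Egln1*, 78.5 for *Vegfa*, 47.2 for *Epas1*, 7.38 for *Egln3*, 2.97 for *Hif1a*, 0.588 for *Ankrd37*, and 0.138 for *Hif3a*. Each gene was higher than the next in 48 of 48 libraries, with median ratios of 1.34, 1.66, 6.7, 2.41, 5.03, and 4.39 down this order. The hydroxylase *Egln1* was thus the most abundant and the least variable, with a coefficient of variation of 5.65% over the libraries, against 8.14% for *Epas1*, 9.24% for *Vegfa*, 11.1% for *Hif1a*, 19.9% for *Egln3*, 30.7% for *Ankrd37*, and 53.1% for *Hif3a*. The last pair rest on few reads, 7 to 25 per library for *Ankrd37* and 2 to 45 for *Hif3a*, whereas *Hif1a* had 235 to 400 and *Egln1* 5225 to 8467. Exons of *Ankrd37* share 1156 bases with *Ufsp2* and 369 with *Lrp2bp* on the opposite strand, and exons of *Hif1a* share 695 with the noncoding *Gm15283*, so reads there could not be assigned unless the counting used strand, which is not given in the sources used here.

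**Figure D1:**
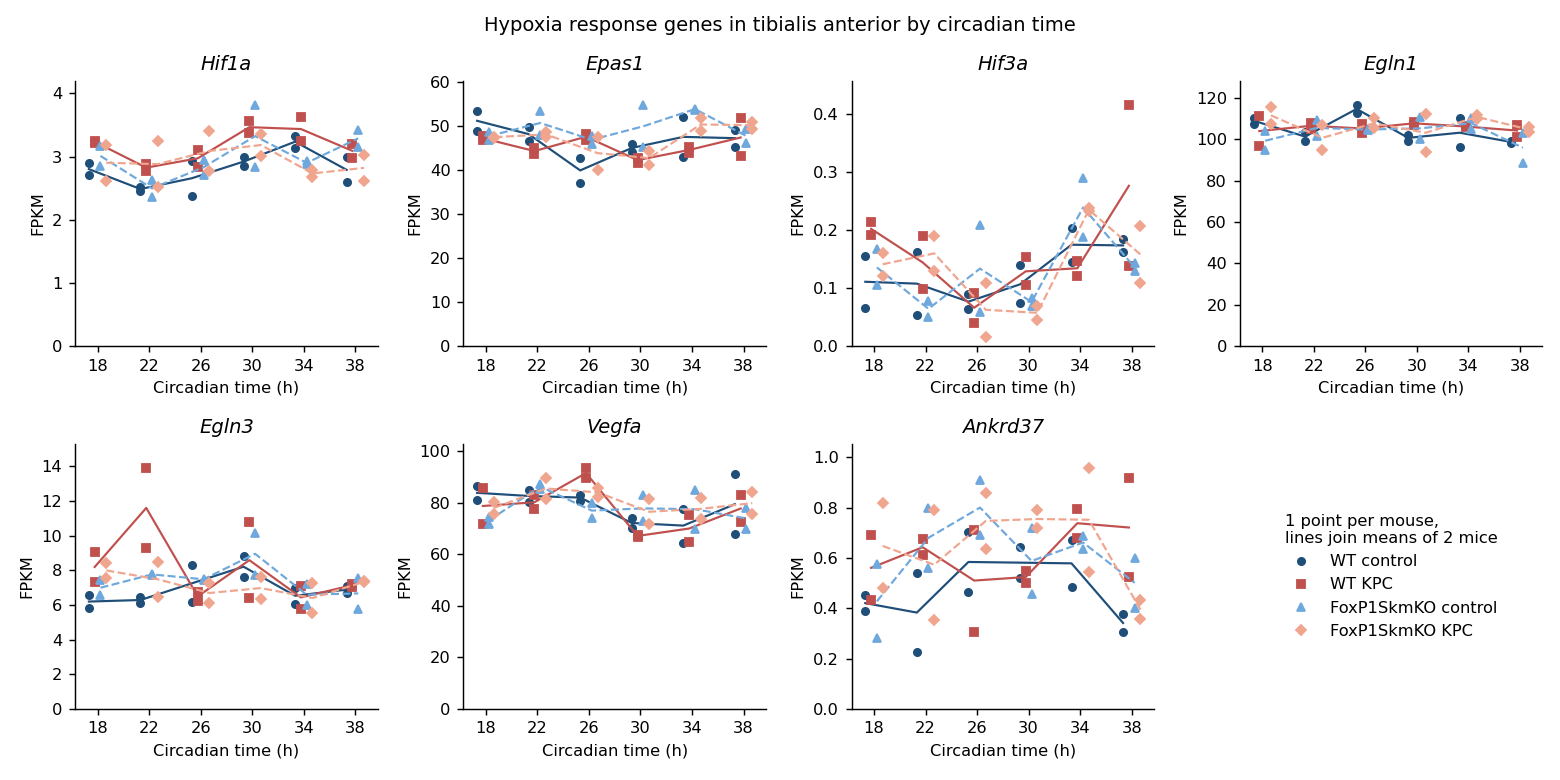
FPKM of each gene (vertical axis) against circadian time in hours (horizontal axis), with 1 point per mouse and lines through the means of 2 mice, by genotype and condition. *Egln1*, *Vegfa*, and *Epas1* stay within narrow bands, the highest *Egln3* value (13.9) is a WT KPC mouse at CT22, and *Hif3a* is lowest near CT26 and CT30.

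Averaged over the 6 circadian times, no hypoxia response gene passed the test for a tumor effect in WT mice (0 of 7, with an adjusted p under 0.05 in edgeR's quasi-likelihood test as the threshold), where 1.79% of the 15637 genes tested were called. These 280 genes became 75 without WT KPC CT38 replicate 2 and 412 without WT KPC CT30 replicate 2, and the 7 genes stayed at 0 calls with any 1 library left out. At an unadjusted p under 0.05 in edgeR there were 2 of 7, *Hif1a* and *Egln3*, against 2370 of all 15637 genes. DESeq2 and limma on these libraries also called 0 of 7. The median log2 fold change of the 7 genes was 0.17, against 0.00 over all genes.

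Of the alpha subunits, *Hif1a* had the lowest p. WT control mice had 2.38 FPKM at the lowest, 2.88 at the median, and 3.33 at the highest, and WT KPC mice 2.77, 3.21, and 3.63. The ranges overlapped, and the KPC values sat higher at each of these points. The mean was 2.81 ± 0.290 FPKM (SD, n = 12) in control and 3.17 ± 0.271 in KPC mice, and the log2 fold change was 0.17 (95% interval 0.06 to 0.28, p = 0.00359, adjusted p = 0.101, edgeR). At the single times it ran from 0.10 at CT34 to 0.25 at CT30, above 0 at 6 of 6. At 3 of these both KPC mice were above both control mice. That held for 19.8% of all gene and time pairs in WT mice with a mean count of at least 10. Macrophage markers summed to a median of 4.50 FPKM in WT KPC and 4.60 in WT control mice (0 of 5 called), and neutrophil markers to 1.75 and 0.451 (2 of 3 called), and their part in the *Hif1a* values was not tested. *Epas1* had 46.5 ± 4.53 FPKM in WT control and 45.5 ± 2.83 in WT KPC mice, with a log2 fold change of -0.03 (-0.11 to 0.05, adjusted p = 0.802). *Hif3a* had 0.125 ± 0.0527 and 0.159 ± 0.0944 FPKM, and its interval of -0.25 to 0.78 leaves room for a change of either sign.

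Among the hydroxylases, *Egln1* was held to a narrow interval, at 105 ± 6.70 FPKM in WT control and 106 ± 3.77 in WT KPC mice (n = 12 each), with a log2 fold change of 0.02 (-0.06 to 0.09, adjusted p = 0.891). *Egln3* ranged from 5.80 through a median of 6.63 to 8.82 FPKM in WT control mice and from 5.77 through 7.17 to 13.9 in WT KPC mice. The medians lay close together, and the KPC range reached far higher. Its log2 fold change was 0.20 (0.03 to 0.37, n = 12 each, p = 0.0198, adjusted p = 0.217), which was 0.07 without CT22. The call depends on the filter on low counts, since with no filter the adjusted p was 0.0375 in edgeR. *Egln3* itself had 242 to 670 reads per library, and the fit with no filter called 794 of all genes in place of 280.

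Of the targets, *Vegfa* was not called in WT mice, at 78.5 ± 7.99 FPKM in control and 77.6 ± 9.38 in KPC mice, with a log2 fold change of -0.02 (-0.12 to 0.07, adjusted p = 0.873). *Ankrd37* had 0.225, 0.476, and 0.702 FPKM at the lowest, median, and highest in WT control mice, and 0.307, 0.643, and 0.919 in WT KPC mice. The values overlapped widely, and the log2 fold change of 0.37 (-0.02 to 0.77, n = 12 each, p = 0.0637, adjusted p = 0.369) was not called.

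In FoxP1SkmKO mice 0 of 7 genes had an unadjusted p under 0.05 (1936 of all genes did). As in WT mice, 0 of 7 were called, where 0.428% of all genes were. The 67 genes behind that share became 17 without FoxP1SkmKO KPC CT22 replicate 2 and 228 without replicate 1 of that group, with 0 of 7 in each fit. The median log2 fold change was 0.01. *Hif1a* had 2.975 ± 0.379 FPKM in control and 2.93 ± 0.311 in KPC mice (log2 fold change -0.02, -0.13 to 0.10), *Egln3* 7.41 ± 1.11 and 7.14 ± 0.893 (-0.05, -0.21 to 0.12), *Ankrd37* 0.610 ± 0.173 and 0.645 ± 0.207 (0.07, -0.31 to 0.46), *Hif3a* 0.131 ± 0.0724 and 0.136 ± 0.0720 (0.01, -0.55 to 0.58), and *Vegfa* 77.6 ± 6.34 and 80.3 ± 5.25 (0.05, -0.05 to 0.15). The lowest p was that of *Epas1*, at 49.5 ± 3.54 FPKM in control and 47.1 ± 3.58 in KPC mice (log2 fold change -0.07, -0.15 to 0.01, n = 12 each, p = 0.0813, adjusted p = 0.477). With both genotypes averaged, again 0 of 7 were called, against 5.29% of all genes, and *Hif1a* was nearest, with a log2 fold change of 0.08 (0.00 to 0.16, n = 24 each, p = 0.0512, adjusted p = 0.259).

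A difference of the tumor effect between the genotypes was called for 0 of the 7 genes and 0% of all genes, with 1020 at an unadjusted p under 0.05. The difference, FoxP1SkmKO minus WT, was -0.19 for *Hif1a* (-0.34 to -0.03, n = 12 in each of the 4 sets, p = 0.0216, adjusted p = 0.764) and -0.25 for *Egln3* (-0.49 to -0.01, p = 0.0407, adjusted p = 0.764), the 2 of 7 with an unadjusted p under 0.05. For *Egln1* and *Vegfa* the intervals ran from -0.07 to 0.13 and from -0.06 to 0.21. The genotype effect gave 0 of 7 calls in control mice, where 3.44% of all genes were called, and 0 of 7 in KPC mice, where 0.32% were. *Epas1* was nearest in control mice, 0.09 higher on the log2 scale in FoxP1SkmKO mice (0.01 to 0.17, n = 12 each, p = 0.032, adjusted p = 0.234), and *Hif1a* in KPC mice, at -0.11 (-0.22 to 0.00, p = 0.0481, adjusted p = 0.455). WT KPC and WT control mice enter several of these comparisons, which are therefore not independent.

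**Figure D2:**
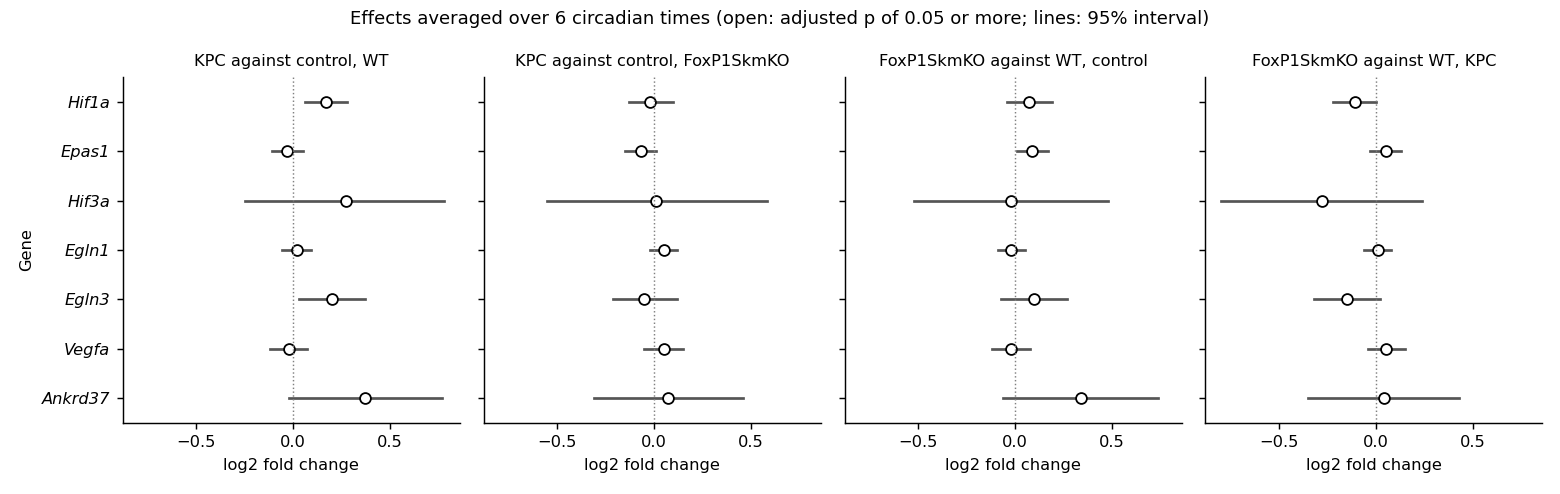
Log2 fold change (horizontal axis) of each gene (vertical axis), averaged over 6 circadian times, for the tumor effect in WT and in FoxP1SkmKO mice and the genotype effect in control and in KPC mice, with 95% intervals. Every point is open, since no adjusted p was under 0.05, and the intervals are narrowest for *Egln1* and widest for *Hif3a*.

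At single circadian times, 2 KPC mice were compared with 2 control mice, and 0 of the 42 gene and time pairs of WT mice were called, against 1.2% of all such pairs. In FoxP1SkmKO mice 0 of 42 were called, against 0.0107%, and for the difference between genotypes 0 of 42, against 0.0597%. The shares over all genes hung on single libraries, as the 1126 pairs of WT mice became 90 without WT control CT26 replicate 1, the 10 of FoxP1SkmKO mice 233 without FoxP1SkmKO KPC CT18 replicate 1, and the 56 of the difference 2 without WT control CT26 replicate 1 and 193 without replicate 2, whereas none of the 7 genes was called in any of these fits. *Egln3* at CT22 in WT mice stood out among the 7 genes. WT KPC mice had 13.9 and 9.29 FPKM there and WT control mice 6.47 and 6.09. Both KPC values were above both control values, and 13.9 was the highest of all 48 libraries. At CT22 in WT mice, 16.6% of all genes with a mean count of at least 10 also had both KPC values above both control values. The log2 fold change was 0.87 with an adjusted p of 0.412 in edgeR, which called 0 genes at this time (746 at an unadjusted p under 0.05). FoxP1SkmKO mice had 8.505 and 6.46 FPKM with tumors and 7.785 and 7.742 without, a log2 fold change of -0.06, and the difference between the genotypes was -0.94 (adjusted p = 0.744).

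The paper gives *Egln3* as an example of the HIF-1 signaling genes that were raised in WT KPC mice in the active phase (CT18 and CT22). Whether *Egln3* at CT22 passes depends on the fit. DESeq2 on the 4 libraries alone, the design of the study, gave an adjusted p of 0.0123, and edgeR with no filter on low counts 8.9e-07. The fit with no filter called 2120 of all gene and time pairs in WT mice in place of 1126. By contrast, edgeR on the same 4 libraries gave 0.381 and limma 0.421 to 0.572. The log2 fold change was 0.77 to 0.88 across these fits and 0.56 to 1.16 with 1 library left out at a time. A test of whether the 6 tumor effects differ from each other gave an adjusted p of 0.235 for *Egln3* in WT mice. It was the only 1 of 7 with an unadjusted p under 0.05 (1912 genes in all), and 0 of 7 were called, against 0.883% of all genes. In FoxP1SkmKO mice that test called 0 of 7 and 0% of all genes, with 0 of 7 at an unadjusted p under 0.05 (1526 genes in all).

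**Figure D3:**
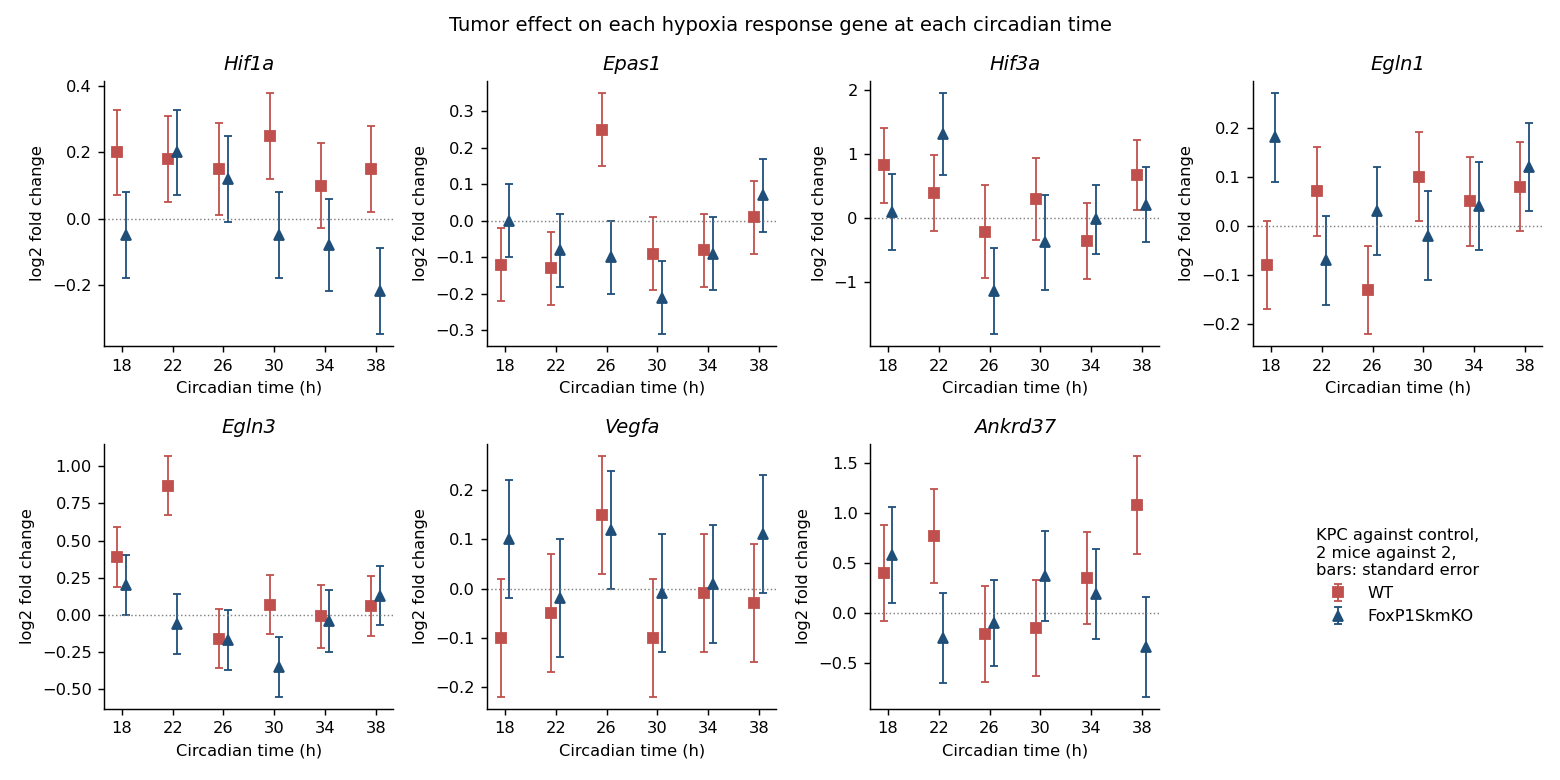
Log2 fold change between KPC and control mice (vertical axis) at each circadian time in hours (horizontal axis) for each gene, in WT and FoxP1SkmKO mice, with the standard error as bars. *Egln3* in WT mice peaks at 0.87 at CT22 and lies between -0.16 and 0.39 at the other times, and *Hif1a* in WT mice is above 0 at 6 of 6.

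The other gene and time pairs with an unadjusted p under 0.05 for the tumor effect (edgeR) are given next. Over all genes, 3342 had such a p at CT26 and 1536 at CT38 in WT mice. In FoxP1SkmKO mice 2158 had it at CT18, 733 at CT22, and 1399 at CT30. In WT mice, *Ankrd37* had 0.919 and 0.524 FPKM with tumors against 0.3065 and 0.376 without at CT38 (log2 fold change 1.08, adjusted p = 0.466), and *Epas1* 46.9 and 48.2 against 37.1 and 42.7 at CT26 (0.25, adjusted p = 0.121). The values did not overlap in either case, and neither did those of 41.1% of all genes at CT38 and 51.4% at CT26. In FoxP1SkmKO mice, *Hif3a* had 0.130 and 0.190 against 0.0785 and 0.0501 at CT22 (1.31, adjusted p = 0.99), *Egln1* was 0.18 higher at CT18 (adjusted p = 0.356), and *Epas1* 0.21 lower at CT30 (adjusted p = 0.506) on the log2 scale. None of the 7 genes was called at these times. Over all 42 pairs in WT mice, both KPC mice were above both control mice in 14 and below in 5, where 19.8% and 19.5% of all gene and time pairs with a mean count of at least 10 were. *Hif1a*, *Egln1*, and *Ankrd37* were above at 3 of 6 times each, and *Epas1* was below at 3. In FoxP1SkmKO mice 8 pairs were above and 7 below, against 19% and 18.1%, and *Hif1a* was above at 0 times and below at 2.

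In the test for circadian time, 4 of the 7 genes were called. With all 8 mice of a time pooled, *Hif1a*, *Hif3a*, *Egln3*, and *Vegfa* passed the test for a level that differed among the times (edgeR, 5 degrees of freedom), and 40.6% of all genes did, so such a call was common. The fold between the highest and lowest time in the fit was 1.21 for *Hif1a*, 2.37 for *Hif3a*, 1.26 for *Egln3*, and 1.14 for *Vegfa*.

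Among the alpha subunits, *Hif1a* was lowest at CT22, at 2.67 ± 0.288 FPKM (SD, n = 8), and highest at CT30, at 3.22 ± 0.356 (adjusted p = 0.0251). The lowest time was CT22 in 3 of the 4 genotype and condition sets, with CT34 in FoxP1SkmKO KPC mice, and the highest CT30 in 3 and CT34 in WT control mice. *Hif3a* was lowest at CT26, at 0.0848 FPKM, and highest at CT34, at 0.196 (adjusted p = 0.00419), and it peaked at CT34 in 3 sets and at CT38 in WT KPC mice, where 1 mouse had 0.416 FPKM and the other 0.137. Its call was kept with any 1 library left out (adjusted p at most 0.00907). *Epas1* ran from 44.5 FPKM at CT26 to 49.1 at CT34 and was not called (adjusted p = 0.0653).

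Of the hydroxylases, *Egln3* was highest at CT22, at 8.28 ± 2.53 FPKM, and nearly as high at CT30, at 8.18, and lowest at CT34, at 6.49 (adjusted p = 0.0413). The peak at CT22 was that of the WT KPC mice, and the other sets peaked at CT18 or CT30. *Egln1* stayed between 101 FPKM at CT38 and 108 at CT26 (adjusted p = 0.337). *Vegfa* was highest at CT22 and CT26, at 83.7 and 83.6 FPKM, and lowest at CT30, at 73.4 (adjusted p = 0.0209). Summed endothelial markers, *Kdr* included, had medians of 89.8 and 90.4 FPKM at CT22 and CT26 and 67.9 to 79 at the other times, and their part in the *Vegfa* values was not tested. *Ankrd37* ran from 0.490 FPKM at CT38 to 0.683 at CT34 (adjusted p = 0.273).

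These calls rest on pooling the sets. In control mice alone 0 of 7 genes were called (lowest adjusted p 0.0634, for *Hif1a*), in KPC mice *Hif3a* and *Egln3*, in WT mice *Vegfa*, and in FoxP1SkmKO mice *Hif3a*. Over all genes, 4383, 2921, 4792, and 2344 were called in these subsets, in place of 6354. The *Vegfa* call was lost without CT26 (adjusted p = 0.0588), that of *Egln3* without the 2 libraries with liver transcripts (0.0641), and that of *Hif1a* with no filter on low counts (0.0733).

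**Figure D4:**
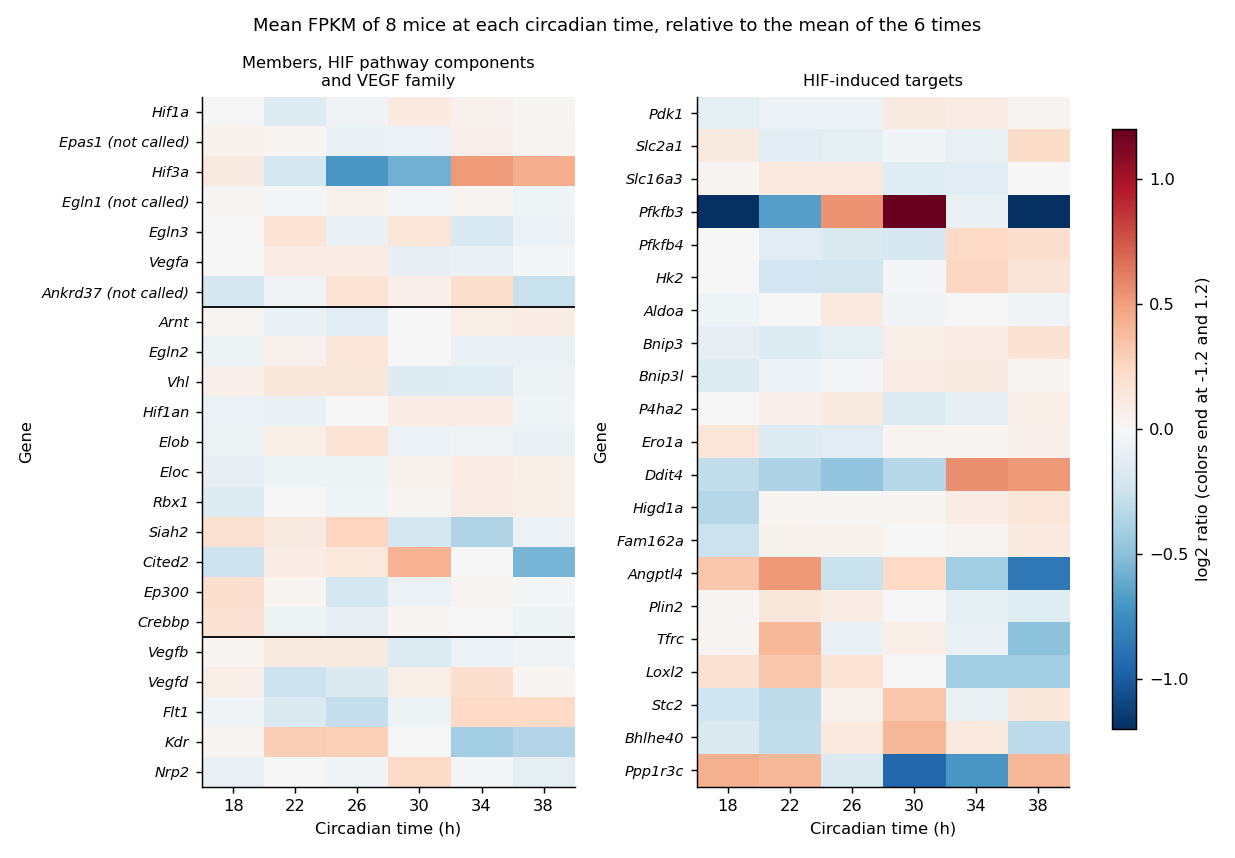
Mean FPKM of 8 mice at each circadian time in hours (horizontal axis) relative to the mean of the 6 times, as log2 ratio in color from blue (lower) to red (higher), for the 7 genes and for the HIF pathway genes, VEGF family genes, and HIF-induced targets whose level differed among times, with 1 such target not shown. *Hif3a* is lowest at CT26 and highest at CT34, and *Pfkfb3* has the widest range, from 7.11 FPKM at CT38 to 61.1 at CT30.

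A sinusoid with a 24-h period was then fitted to the 12 mice of each set, with p under 0.01 as the threshold for rhythmicity that the study used. None of the 7 genes was rhythmic in any set. Over all genes, 4.92% were in WT control, 4.22% in WT KPC, 4.07% in FoxP1SkmKO control, and 2.63% in FoxP1SkmKO KPC mice. At these shares, a count of 0 among 7 genes is not unusual. *Hif1a* was nearest (n = 12 in each set), with p = 0.0269 and an amplitude of 0.291 FPKM (10.4% of its basal level) peaking at CT34.1 in WT control mice, and p = 0.0387 and 0.264 FPKM peaking at CT33.5 in WT KPC mice. In WT control mice the *Hif1a* p was 0.00464 without CT38 replicate 1. It was 0.245 in FoxP1SkmKO control and 0.473 in FoxP1SkmKO KPC mice. At an unadjusted p under 0.05, *Hif1a* in the WT sets was the only member found. A difference in rhythm between KPC and control mice was called for 0 of 7 genes and 0% of all genes in WT mice and for 0 of 7 and 0% in FoxP1SkmKO mice, with 1501 and 1590 genes of the table at an unadjusted p under 0.05. Of 14 other HIF pathway components, 2 were rhythmic in WT control mice (*Egln2* and *Eloc*), 3 in WT KPC mice (*Hif1an*, *Cul2*, and *Cited2*), 3 in FoxP1SkmKO control mice (*Egln2*, *Eloc*, and *Cited2*), and 1 in FoxP1SkmKO KPC mice (*Ep300*). The lowest p in each WT set was that of *Egln2*, the third prolyl hydroxylase, in control mice (n = 12, p = 7.6e-04, adjusted p = 0.0776, amplitude 13.6% of basal), and that of *Hif1an*, the asparaginyl hydroxylase that blocks HIF coactivators, in KPC mice (p = 4.4e-04, adjusted p = 0.0711), and none of these 9 calls held with adjusted p-values. Of 35 HIF-induced targets fitted, 8 were rhythmic in WT control, 7 in WT KPC, 5 in FoxP1SkmKO control, and 4 in FoxP1SkmKO KPC mice. Of 9 VEGF family genes, 2, 1, 2, and 1 were rhythmic in the same order of sets.

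Around the 7 genes, 3 lists of related genes were tested in the same fits. Of 14 HIF pathway components, 0 were called for a tumor effect in WT mice and 0 in FoxP1SkmKO mice (median log2 fold changes -0.01 and 0.03), against 1.79% and 0.428% of all genes. At an unadjusted p under 0.05 there were 3 and 1 of 14, against 2370 and 1936 of all 15637 genes. *Arnt2*, which encodes a neuronal relative of ARNT, fell with both genotypes averaged (log2 fold change -0.32, standard error 0.08, adjusted p = 0.0146). At CT26 in WT mice, *Ep300*, which encodes the coactivator p300, was higher in KPC mice, at 5.34 and 5.89 FPKM against 2.69 and 3.63 (log2 fold change 0.83, adjusted p = 8.6e-06), and *Elob*, a subunit of the VHL complex, was lower (-0.44, adjusted p = 0.00541). A WT control mouse held the highest *Elob* value at that time, 76.8 FPKM against a median of 55.8 over the 8 mice. At that time 1121 genes were called in all, and the calls at single times in WT mice hung on WT control CT26 replicate 1. In FoxP1SkmKO mice *Ep300* had 5.44 and 4.85 against 5.02 and 5.15 FPKM, and its tumor effect differed between the genotypes by -0.82 (standard error 0.14, adjusted p = 0.0103). The 2 WT control mice were the lowest of these 8.

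In the test among times, 11 of 14 components were called, against the 40.6% of all genes. *Cited2*, an HIF-induced competitor for p300, rose from 12 FPKM at CT38 to 23.5 at CT30, and *Siah2*, a ubiquitin ligase for prolyl hydroxylases, fell from 5.06 at CT26 to 3.29 at CT34. *Arnt* ran from 6.16 FPKM at CT26 to 7.16 at CT38, *Egln2* from 37.6 at CT34 and CT38 to 44 at CT26, *Hif1an* from 44.2 at CT22 to 49.6 at CT34, and *Vhl* from 1.95 at CT30 to 2.39 at CT22 and CT26.

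Of 36 HIF-induced targets 34 were tested, and in WT mice 1 rose and 3 fell with tumors (median log2 fold change 0.02), against the 1.79% of all genes, of which 182 rose and 98 fell. The riser was *Bhlhe40*, a transcriptional repressor tied to the clock, at 22.6 ± 5.77 FPKM in control and 27.3 ± 5.15 in KPC mice (log2 fold change 0.30, adjusted p = 0.0186). The transferrin receptor *Tfrc* fell from 36.3 ± 9.97 to 21.8 ± 7.13 FPKM (-0.76, adjusted p = 0.0207), the matrix crosslinking enzyme *Loxl2* from 0.806 ± 0.140 to 0.607 ± 0.287 (-0.54, adjusted p = 0.0412), and the lactate exporter *Slc16a3* from 90.9 ± 10.5 to 80.1 ± 10.4 (-0.19, adjusted p = 0.0348). In FoxP1SkmKO mice 0 of 34 were called, with 9 at an unadjusted p under 0.05, against 1936 of all 15637 genes. A difference between the genotypes was called for none of the 34. Of the glycolytic targets, *Ldha*, *Pgk1*, and *Slc2a1* had log2 fold changes of -0.06, -0.08, and 0.07 in WT mice, and none of these was called. They were picked after their values were seen and do not stand for the other glycolytic targets. The 4 fibroblast markers had a median log2 fold change of -0.60 in WT mice, 2 of them called, and their part in the *Loxl2* fall was not tested.

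With both genotypes averaged, 3 of 34 targets rose and 3 fell, against the 5.29% of all genes (447 higher and 380 lower). The stress-induced mTORC1 inhibitor *Ddit4* rose by 0.44 (adjusted p = 0.0325), *Bhlhe40* by 0.24 (adjusted p = 0.00228), and *Mxi1*, a repressor of MYC targets, by 0.10 (adjusted p = 0.0385) on the log2 scale. *Adm*, which encodes the vasodilator adrenomedullin, fell by 0.55 (adjusted p = 0.0051), *Tfrc* by 0.62 (adjusted p = 0.00211), and *Loxl2* by 0.51 (adjusted p = 0.00198). Between genotypes in control mice, *P4ha1* (-0.31, adjusted p = 2.4e-04), *Slc16a3* (-0.22, adjusted p = 0.00547), and *Lox* (-0.57, adjusted p = 0.0395) were lower in FoxP1SkmKO mice. *P4ha1*, a collagen prolyl hydroxylase subunit, had 7.64 ± 0.533 FPKM in WT control and 6.17 ± 0.502 in FoxP1SkmKO control mice. In KPC mice 0 of 34 targets were called between genotypes, with 8 at an unadjusted p under 0.05, against 1688 of all 15637 genes.

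Across times, 22 of 34 targets were called, against the 40.6% of all genes. *Pfkfb3*, an activator of glycolysis, rose from 7.11 ± 3.02 FPKM at CT38 to 61.1 ± 18.1 at CT30, 8.6 times as high. *Bhlhe40* also peaked at CT30, at 32.4 FPKM against 19.8 at CT38. *Ppp1r3c*, a glycogen-targeting subunit of protein phosphatase 1, ran the other way, at 60.6 FPKM at CT30 against 156 at CT18. *Ddit4* and hexokinase *Hk2* were highest at CT34, at 10.8 and 102 FPKM, against lows of 5.28 at CT26 and 73.5 at CT22. These genes were picked after their values were seen, and their peaks do not stand for the other called targets.

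**Figure D5:**
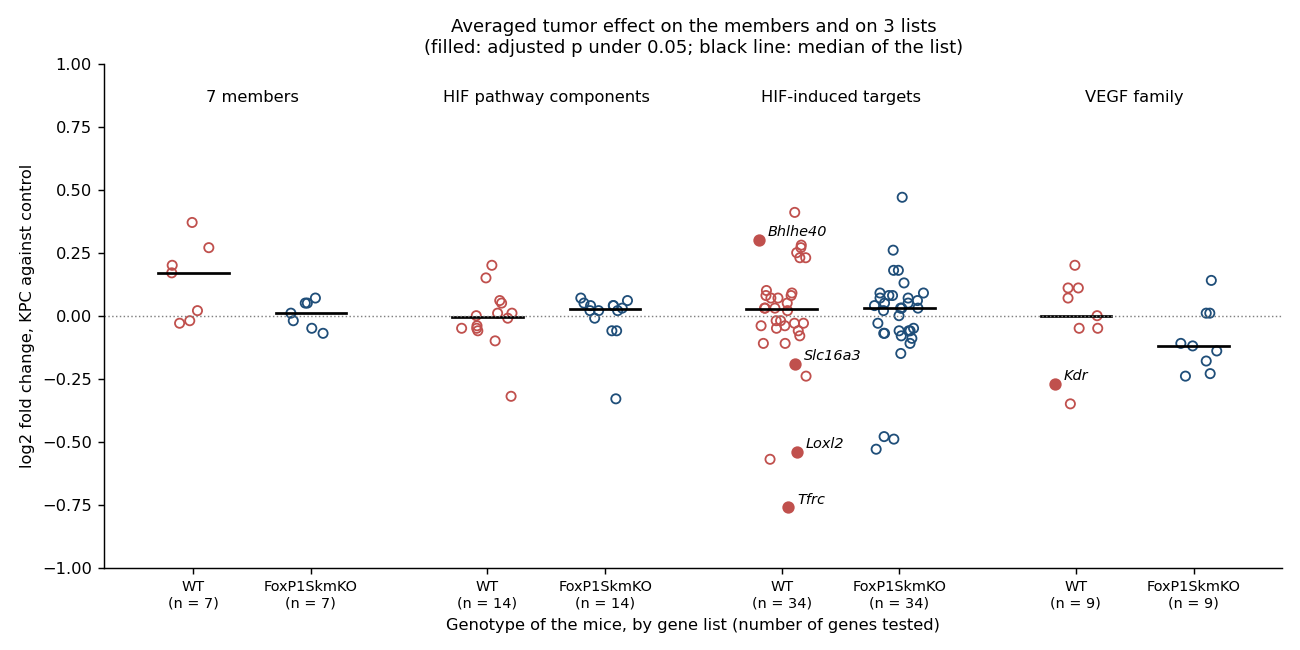
Log2 fold change between KPC and control mice, averaged over times (vertical axis), for each tested gene of the 7 and of 3 lists, by genotype (horizontal axis), with the list median as a black line and called genes filled and named. Called genes appear in WT mice (*Bhlhe40*, *Slc16a3*, *Loxl2*, *Tfrc*, *Kdr*) and none in FoxP1SkmKO mice, and a difference between the genotypes was called for none of these.

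Among 9 VEGF family ligands and receptors, *Kdr*, the main endothelial receptor for VEGFA, fell in WT mice, from 9.15 ± 1.82 to 7.70 ± 2.14 FPKM (log2 fold change -0.27, adjusted p = 0.0412), and 0 of 9 were called in FoxP1SkmKO mice, where *Kdr* was at -0.23 (adjusted p = 0.135). With both genotypes it fell by 0.25 (adjusted p = 0.00251). Of the 7 endothelial markers, 1 was called in WT mice, *Kdr* itself, and their median log2 fold change was -0.03. Their summed FPKM, *Kdr* included, had a median of 85.0 in WT control and 75.3 in WT KPC mice. In FoxP1SkmKO mice it was 78.5 in control and 73.1 in KPC mice. The ranges overlapped in both genotypes, and the part of endothelial content in the *Kdr* fall was not tested. Across times, *Kdr* ran from 6.21 FPKM at CT34 to 10.2 at CT22, and the decoy receptor *Flt1* the opposite way, from 6.36 at CT26 to 9.15 at CT34. *Vegfd*, *Nrp2*, and *Vegfb*, a muscle-enriched ligand with 98.5 FPKM at CT30 and 119 at CT22 and CT26, were called too, 5 of 9 in all, against the 40.6% of all genes.

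Over the 48 libraries the 7 genes showed little common variation. The highest correlation of log2 CPM (counts scaled to library size) between any of them was 0.35, for *Epas1* with *Hif3a* and for *Egln1* with *Ankrd37*, and the lowest -0.42, for *Hif1a* with *Vegfa*. The gene most like each, among 12632, was *Adipor1* for *Egln1* (Pearson r = 0.78, Spearman rho = 0.64), *Sptan1* for *Epas1* (0.74, 0.73), *Perm1* for *Vegfa* (0.72, 0.67), *Serinc3* for *Hif3a* (0.70, 0.64), *Osbpl8* for *Hif1a* (0.63, 0.67), *Tbc1d17* for *Ankrd37* (0.56, 0.57), and *Selenbp1* for *Egln3* (0.54, 0.42). The next genes were *Ilrun* and *Zfp651* for *Egln1*, *Sptbn1* and *Adgrf5* for *Epas1*, *Pgp* and *Fitm2* for *Vegfa*, *Fmo2* and *Xdh* for *Hif3a*, *Mbtps2* and *Zcchc7* for *Hif1a*, *Fiz1* and *Uaca* for *Ankrd37*, and *Prex1* and *Lrrc49* for *Egln3*. These values describe libraries that share depth, muscle sampling, and time of day.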

How the data were processed

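The authors sequenced poly-A RNA of 48 TA muscles. The paper names STAR and HTSeq on mm39, whereas the submitters' processing notes name HISAT2 2.0.5 and DESeq2 1.20.0, and both are given as stated. The deposited tables hold raw counts per gene, a signal made by dividing counts by DESeq2 size factors, and FPKM computed by the authors from counts, gene lengths, and library size. They also hold the authors' log2 fold changes, p-values, and adjusted p-values of KPC against control mice, which were not used. In all, 28541 values above 0 in the FPKM table had no entry in the comparison tables, and each, equal to 1 read, was set to 1.

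Counts were tested with edgeR 4.0.16 in R 4.3.3 (filterByExpr with 24 groups, 15637 genes kept, TMM, a quasi-likelihood fit with 1 coefficient per group, prior degrees of freedom 8.611). Contrasts gave the tumor effect per time and averaged, its difference between genotypes, genotype effects, and F tests among times. P-values were adjusted by Benjamini-Hochberg over all genes tested, and a gene was called at an adjusted value under 0.05, and 95% intervals used 32.61 degrees of freedom. Tests take mice as replicates. Rhythms were fitted to FPKM (F test with 2 and 9 degrees of freedom, and 2 and 18 for differences) with Python 3.11.15 and scipy 1.17.1. Correlations used log2 CPM with a prior count of 2. Scripts were tested on simulated data.

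The 7 genes, the lists of 14, 36, and 9 genes, and the markers were chosen with earlier results of these data known. Named genes were all 7, list genes that passed a test, and the 3 genes most like each of the 7. *Vhl*, *Ldha*, *Pgk1*, and *Slc2a1* and the list genes described at their highest and lowest times were picked from longer lists of calls or of uncalled genes after their values were seen. In the counts of HIF-induced targets, 1 gene is included that is not reported here by name. Alternatives were no filter, DESeq2 size factors, DESeq2 1.42.0, limma 3.58.1 on log2(FPKM + 1) and log2(FPKM + 0.1), fits on 4 libraries, a replicate block, and times or libraries left out. Subsets of mice, the removal of libraries with liver transcripts, and the test among times without CT26 were added after seeing the data.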

Additional observations from a re-analysis of the deposited data

Results flagged for a closer look

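The tumor effect on *Ep300* at CT26 differed between the genotypes by -0.82 on the log2 scale (FoxP1SkmKO minus WT, standard error 0.14, adjusted p = 0.0103 in edgeR), by a direct test of the difference. It was 0.83 in WT and 0.01 in FoxP1SkmKO mice. The difference was -0.60 (adjusted p = 0.383) without WT control CT26 replicate 1, -0.72 (0.0671) without WT KPC CT26 replicate 2, -0.78 (0.0673) without FoxP1SkmKO control CT26 replicate 2, and -0.71 (0.0945) without FoxP1SkmKO KPC CT26 replicate 2. At CT26, 54 genes had such a call, and none of the 7 hypoxia response genes was among them. Groups of 2 mice are too small for a check of single outlying samples.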

How the results depend on the processing

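Over 168 results, 7468 values were recomputed, 6048 of them with 1 library left out. With no filter on low counts, 1 of the 7 genes, *Egln3*, was called for the averaged tumor effect in WT mice, at single times in WT mice, for the difference at single times, and for the tumor effect by time in WT mice, where 0 were called otherwise, and DESeq2 on 4 libraries called 1 at single times in WT mice. For the level by time, 0 were called in control mice alone, 2 in KPC, 1 in WT, and 1 in FoxP1SkmKO mice, in place of 4, and 2 to 5 with 1 library left out. *Egln3* lost that call in 27 and *Hif1a* in 10 of 48 such fits, and *Epas1* gained it in 16. Members rhythmic in WT control mice numbered 0 to 1 with a library left out. The *Epas1* difference of -0.04 became 0.02 without CT26, and the *Hif3a* effect in FoxP1SkmKO mice lay between -0.30 and 0.21 with a library left out. The replicate block, a term for a number that replicates share by name only (correlations of deviations -0.32 to 0.23 over 276 pairs of groups), called 0 of 7 for the tumor effects and the same number, 4, for the level by time, and left *Egln3* at CT22 at 0.88 (adjusted p = 0.39). With a library left out, calls were lost in 18 of 48 fits for *Loxl2*, 15 for *Kdr*, 12 for *Slc16a3*, 6 for *Tfrc*, and 2 for *Bhlhe40* in WT mice, in 16 for *Ddit4* and 28 for *Mxi1* with both genotypes, and in 16 for *Lox* between genotypes. Causes were not tested. Without the filter, genes called rose from 280 to 794 (WT, averaged), 67 to 527 (FoxP1SkmKO), 0 to 104 (difference), 538 to 933 and 50 to 470 (genotype), 1126 to 2120, 10 to 1678, and 56 to 915 (single times), and 138 to 806 and 0 to 905 (effect by time). DESeq2 on 48 libraries called 159 (FoxP1SkmKO), 106 (genotype in KPC mice), 178, and 151 (single times in FoxP1SkmKO mice and their difference), and limma 166 to 173 (WT), 20 to 22 (FoxP1SkmKO), 28 (genotype in KPC mice), 6, and 16 to 46 (single times in FoxP1SkmKO mice and their difference). With a library left out, genes called for genotype numbered 303 to 760 in control and 17 to 198 in KPC mice, and for the effect by time 1 to 212 in WT (1 without WT control CT26 replicate 1) and 0 to 42 in FoxP1SkmKO mice. On 4 libraries, edgeR called 480 in WT and 81 in FoxP1SkmKO mice and DESeq2 197 in FoxP1SkmKO mice. Leaving out a time gave 118 to 232 in WT, 3 to 130 in FoxP1SkmKO, 487 to 948 with both genotypes, and 268 to 604 and 0 to 138 for genotype in control and KPC mice. Without the libraries with liver transcripts, 30 genes differed by genotype in KPC mice. KPC mice alone gave 2921 and FoxP1SkmKO mice alone 2344 genes by time, in place of 6354. With adjusted p-values, 150, 130, 119, and 33 genes were rhythmic in the 4 sets. The few reads of *Hif3a* and *Ankrd37* limit what could be detected.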
